A study of Homo sapiens with 36 samples.

Results

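All 12 cytoplasmic total RNA libraries of the series, out of 36, were used to measure how the response to auxin differed between cells with a degron on DIS3 and control cells. They were chosen by fraction and library type alone. The cells were HCT116, a human colon carcinoma line, in 4 groups of 3 libraries: DIS3-AID cells given 500 uM auxin for 1 h, untreated DIS3-AID cells, control cells given the same auxin, and untreated control cells. The control line expressed TIR1, the plant receptor through which auxin acts. In the DIS3-AID line, made by CRISPR, DIS3 carried an auxin-inducible degron (AID), and it is 1 clone, so clone and tag cannot be told apart. Triplicates are described as technical, and p-values therefore cover no more than the spread among the libraries.

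DIS3 is a 3′ to 5′ exonuclease that sits at the base of the nuclear RNA exosome, a barrel-shaped complex through which RNA is threaded. The exosome trims the 3′ ends of small nuclear and nucleolar RNAs and degrades short-lived transcripts, among them promoter upstream transcripts and enhancer RNAs. Most of its substrates arise in the nucleus, so the cytoplasm normally holds little of them. An auxin-inducible degron hands the tagged protein to the proteasome when TIR1 has bound auxin, and the line without the degron shows what auxin does by itself.

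The quantity described is the auxin by line interaction, a difference of differences on the log2 scale: the auxin effect of the DIS3-AID line less that of the control line. A positive value means that a level rose more, or fell less, with auxin in DIS3-AID cells. Libraries held 59.5 M to 122.6 M counts. Levels are in CPM, read counts relative to the library size after scaling by the trimmed mean of M values (TMM), whose factors ran from 0.97 to 1.09. A level is therefore a share of a library, and fewer cells of a kind cannot be told apart from less RNA per cell.

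DIS3 mRNA (ENSG00000083520.14, hg38 chr13:72752169-72782096, minus strand) stood at 46.9, 45.2 and 45.4 CPM in auxin-treated DIS3-AID cells, 51.1, 52.1 and 47.1 CPM in DIS3-AID cells without auxin, 96.5, 90.1 and 92.5 CPM in auxin-treated control cells and 92.4, 91.6 and 87.6 CPM in untreated control cells. Every DIS3-AID library lay below every control library, with or without auxin. The interaction was -0.17 ± 0.07 (log2 ± SE, adjusted p = 0.124, edgeR quasi-likelihood test). Depletion by the degron happens at the protein level and cannot be read from mRNA.

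Of 23027 features tested, 3696 (16.1%) were higher and 763 (3.31%) lower in the interaction at adjusted p < 0.05, and the median of all features was -0.04. The filter on low counts passes a feature that reaches the minimum in the libraries of any group. Features present in auxin-treated DIS3-AID cells alone are thus tested and can hardly be called lower. The shares of higher and lower calls given below, by class and by list, carry this limit. The sizes were one-sided: 2910 features (12.6%) were higher by at least 2-fold and 17 (0.0738%) were lower by at least 2-fold. Auxin itself was called for 7894 features (34.3%) in DIS3-AID cells and for 11 (0.0478%) in control cells, where 1413 had an unadjusted p under 0.05. Without TMM factors, on library sizes alone, 4079 features were higher and 237 lower, which makes the share of higher calls 94.5% against 82.9% under TMM. Lower calls also numbered 344 without replicate 3 of untreated control cells, 430 without replicate 3 of auxin-treated control cells, 476 without replicate 2 of untreated DIS3-AID cells and 480 without replicate 2 of untreated control cells. For auxin in DIS3-AID cells that share of higher calls was 89.1% on library sizes alone and 61.5% under TMM.

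Long non-coding RNAs and assembled loci held most of the higher calls. Small nuclear RNAs (snRNAs), the RNA parts of the spliceosome, were higher in 45 of 76 cases (59.2%), with a median of 1.98. Small nucleolar RNAs (snoRNAs), which guide the modification of ribosomal RNA, were higher in 91 of 247 (36.8%) and lower in 1. Long non-coding RNAs (lncRNAs) were higher in 1659 of 4672 (35.5%) and lower in 30, with a median of 0.50. Assembled loci, which carry a locus number and neither a symbol nor coordinates in the tables, were higher in 1081 of 1433 cases (75.4%). If they were assembled from these libraries, which is not given in the sources used here, their direction is no independent evidence. Protein-coding genes divided nearly evenly under TMM, with 655 of 14396 higher (4.55%), 707 lower (4.91%) and a median of -0.09.

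**Figure D1:**
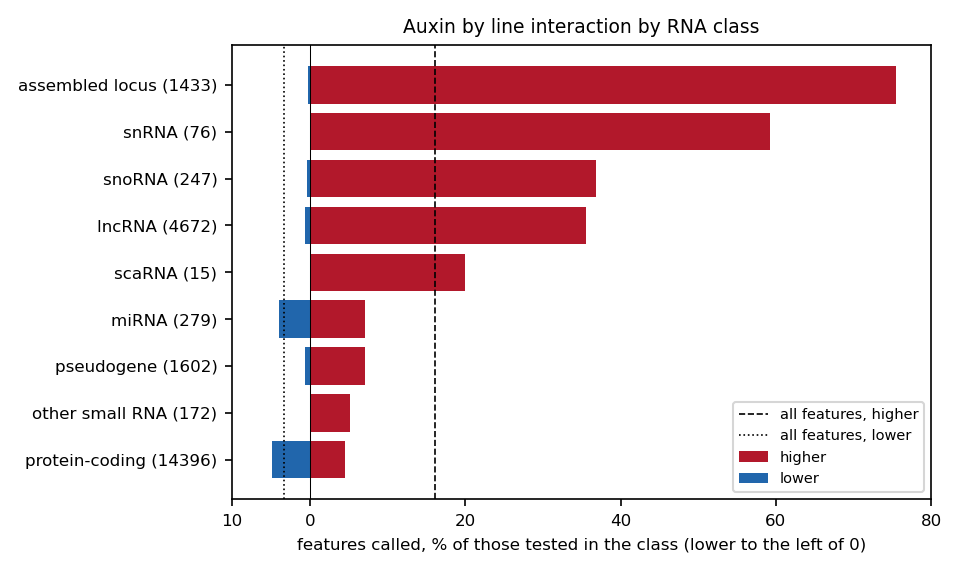
Features called in the auxin by line interaction, in percent of those tested, for 9 RNA classes with the number tested in brackets. Bars right of 0 are higher calls and bars left of 0 lower calls, and the dashed and dotted lines mark the 16.1% higher and 3.31% lower of all features. Assembled loci (75.4%), snRNAs (59.2%), snoRNAs (36.8%) and lncRNAs (35.5%) pass the dashed line by the widest margins.

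The share of all counts taken by each class was compared as well. snRNAs took 0.0438 ± 0.00312% of counts in auxin-treated DIS3-AID cells, 0.00981 ± 0.000919% in untreated DIS3-AID cells, 0.00866 ± 0.000855% in auxin-treated control cells and 0.00974 ± 0.00134% in untreated control cells (SD, n = 3 each). The auxin-treated DIS3-AID libraries did not overlap the other groups. On the log2 scale the interaction of this share was 2.33, with an exact permutation p of 0.015 (two-sided, 400 arrangements of auxin labels within lines, smallest possible p 0.005). The interaction was 1.63 for assembled loci (exact permutation p = 0.015), 1.44 for snoRNAs (exact permutation p = 0.025) and 0.22 for lncRNAs (exact permutation p = 0.01). For microRNA genes it was -0.02 (exact permutation p = 0.53). Protein-coding genes took 87.0 ± 0.239% of counts in auxin-treated DIS3-AID cells, 88.3 ± 0.806% in untreated DIS3-AID cells, 88.7 ± 0.088% in auxin-treated control cells and 88.5 ± 0.22% in untreated control cells (SD, n = 3 each). These p-values, from 9 classes, are not adjusted.

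Spliceosomal snRNAs were the group called most completely among those of more than 10 tested genes. Of 46 in the tables, 37 passed the filter on low counts, and 35 of them were higher and 0 lower, with a median of 2.36. U1 recognises the 5′ splice site, and the genome holds many variant copies of it, named RNVU1. All 3 tested U1 genes (median 2.05) and 18 of 19 variants (median 2.52) were higher. So were all 5 genes of U5, which aligns the exons (2.54), both genes of U4, which keeps U6 inactive (2.69), 3 of 4 genes of U6, part of the catalytic centre (1.49), and all 4 of the minor spliceosome (2.31). The sequences below show how far the variants are from U1: the main U1 RNA, the 3 snRNAs with the largest interaction at a mean of at least 1 CPM, the U1-type RNA with the most counts (RNVU1-22) and the called variant with the smallest interaction (RNVU1-31). They are GENCODE 29 transcripts on hg38 in DNA letters, 5′ to 3′, and capitals mark positions 3 to 11, which in U1 pair with the 5′ splice site.
RNU1-1: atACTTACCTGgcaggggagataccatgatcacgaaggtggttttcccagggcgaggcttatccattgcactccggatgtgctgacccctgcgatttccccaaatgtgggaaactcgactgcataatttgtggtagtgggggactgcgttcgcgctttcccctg
RNVU1-34: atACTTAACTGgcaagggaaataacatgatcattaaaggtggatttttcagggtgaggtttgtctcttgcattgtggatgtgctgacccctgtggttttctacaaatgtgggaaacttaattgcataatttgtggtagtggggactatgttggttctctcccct
RNVU1-21: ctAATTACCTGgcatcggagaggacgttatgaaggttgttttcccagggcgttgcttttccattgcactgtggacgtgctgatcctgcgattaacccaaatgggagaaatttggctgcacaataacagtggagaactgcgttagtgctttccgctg
RNVU1-25: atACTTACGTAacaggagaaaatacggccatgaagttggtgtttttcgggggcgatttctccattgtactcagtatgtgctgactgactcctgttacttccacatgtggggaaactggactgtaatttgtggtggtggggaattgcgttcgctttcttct
RNVU1-22: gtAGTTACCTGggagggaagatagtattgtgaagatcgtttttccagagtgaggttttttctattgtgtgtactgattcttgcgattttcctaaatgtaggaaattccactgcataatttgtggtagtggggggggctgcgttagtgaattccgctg
RNVU1-31: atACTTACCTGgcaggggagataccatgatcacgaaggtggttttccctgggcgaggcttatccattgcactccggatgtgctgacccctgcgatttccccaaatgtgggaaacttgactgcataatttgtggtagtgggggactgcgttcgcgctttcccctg

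Positions are counted from 1 at the 5′ end, and substitutions give the base of RNU1-1 first. RNVU1-34 (chr17:58679527-58679690, minus strand) is 79.5% identical to RNU1-1 (chr1:16514122-16514285, minus strand) and carries C8A in the capitals. RNVU1-21 (chr1:148334612-148334767, minus strand, 75% identical) carries C4A. RNVU1-25 (chr1:146409903-146410062, plus strand, 72% identical) carries C9G and G11A. RNVU1-22 (chr1:148263476-148263632, plus strand, 73.7% identical) carries C4G, and RNVU1-31 (chr1:145465617-145465780, minus strand, 98.8% identical) has no substitution there. Of 22 tested U1-type genes, all with a sequence, the variant on chromosome 8 was left out of the comparison. It was the only U1-type gene not called in the interaction, so the sequences compared are those of called genes alone. Among these 21 U1-type sequences, 12 have the segment of U1 unaltered.

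RNVU1-22 stood at 36.2, 36.7 and 31.2 CPM in auxin-treated DIS3-AID cells, 3.95, 4.26 and 4.48 CPM in DIS3-AID cells without auxin, 2.91, 2.38 and 2.81 CPM in auxin-treated control cells and 2.72, 2.76 and 2.38 CPM in untreated control cells. Auxin-treated DIS3-AID libraries were far above the others, untreated DIS3-AID libraries lay somewhat above both control groups, and the control groups overlapped. The interaction was 3.0 ± 0.13, adjusted p = 1.4e-11. It was 3.28 ± 0.21 for RNVU1-34, 3.17 ± 0.16 for RNVU1-21 and 3.07 ± 0.22 for RNVU1-25. RNU1-1, at 2.73, 3.34 and 2.68 CPM in auxin-treated DIS3-AID cells, 0.795, 0.823 and 0.647 CPM in DIS3-AID cells without auxin, 0.525, 0.469 and 0.569 CPM in auxin-treated control cells and 0.554, 0.638 and 0.495 CPM in untreated control cells, had 2.05 ± 0.22, adjusted p = 9.42e-07. Among the named U1-type RNAs RNVU1-31 had the smallest called value (1.65 ± 0.38, adjusted p = 0.00831). RNU1-2, RNU1-4, RNVU1-18 and RNVU1-29 have the same letters as RNU1-1, so how reads were divided among such copies is uncertain.

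RNU5F-1, a U5 copy, stood at 16.7, 16.9 and 14.7 CPM in auxin-treated DIS3-AID cells, 2.23, 2.78 and 1.91 CPM in DIS3-AID cells without auxin, 1.94, 1.72 and 1.99 CPM in auxin-treated control cells and 2.33, 2 and 1.99 CPM in untreated control cells. Its interaction was 2.97 ± 0.17, adjusted p = 2.11e-10, and its auxin-treated DIS3-AID libraries stood apart from the other 9. RNU11, RNU12 and RNU4ATAC, of the minor spliceosome that removes a rare class of introns, had interactions of 2.45 ± 0.14, 2.37 ± 0.23 and 2.25 ± 0.20. Of the 37 tested spliceosomal snRNAs, those not called were RNVU1-32 (-0.07 ± 0.37, adjusted p = 0.923) and RNU6-8 (0.41 ± 0.58, adjusted p = 0.675). Both averaged under 1 CPM in all 4 groups. Gene counts do not show whether a read came from a mature RNA or from a precursor with a longer 3′ end.

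The U3 and U8 snoRNAs, which act in cleavage of the ribosomal RNA precursor, were higher in 7 of 7 features, with a median of 2.99. SNORD3B-2, a U3 gene (chr17:19063346-19064136, minus strand), stood at 38.2, 45 and 42.8 CPM in auxin-treated DIS3-AID cells, 8.45, 7.47 and 8.78 CPM in DIS3-AID cells without auxin, 6.02, 5.9 and 6.88 CPM in auxin-treated control cells and 8.62, 9 and 9.11 CPM in untreated control cells. The interaction was 2.86 ± 0.11, adjusted p = 3.03e-12. Auxin-treated control libraries lay below all the untreated ones, and the auxin effect there was -0.51 (adjusted p = 0.0332), opposite to 2.35 in DIS3-AID cells. SNORD3A, the U3 gene with the highest level, had 1.74 ± 0.26, and SNORD118, the U8 RNA, which overlaps TMEM107, had 2.45 ± 0.21. The U3 genes are close copies, and SNORD3D stands in the tables as a pair of overlapping features, so these are not 7 separate measurements.

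Box H/ACA snoRNAs, which guide pseudouridylation, were higher in 44 of 102 tested members (43.1%, 214 in the tables) and lower in 0, with a median of 0.90. Box C/D snoRNAs other than U3 and U8, which guide ribose methylation, were higher in 35 of 117 tested members (29.9%, 304 in the tables) and lower in 1, with a median of 0.17. Of all tested snoRNAs 36.8% were higher. The box C/D lower count was 0 on library sizes alone and when any 1 of 9 libraries was left out, that is, each one but replicate 2 of untreated DIS3-AID cells, replicate 2 of auxin-treated control cells and replicate 1 of untreated control cells. SNORD53B stood at 3.89, 3.56 and 3.1 CPM in auxin-treated DIS3-AID cells, 0.375, 0.339 and 0.297 CPM in DIS3-AID cells without auxin, 0.131, 0.131 and 0.215 CPM in auxin-treated control cells and 0.159, 0.189 and 0.198 CPM in untreated control cells. That gave 3.59 ± 0.33, adjusted p = 1.33e-07, with auxin-treated DIS3-AID libraries apart from the rest. SNORD13, which guides acetylation of small-subunit ribosomal RNA, had 2.79 ± 0.13. Some of the largest values belonged to snoRNAs inside highly expressed genes, whose reads they may share: SNORA69 (3.69 ± 0.31) overlaps RPL39, SNORA27 (3.03 ± 0.25) overlaps RPL21 and SNORD95 (2.79 ± 0.25) overlaps RACK1. Cajal body RNAs (scaRNAs), which guide modification of snRNAs, were higher in 4 of 18 tested members (22.2%, beside 16.1% of all features). That count was 7 without replicate 1 of untreated DIS3-AID cells and 2 without replicate 2 of untreated control cells.

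Divergent transcripts, which start beside a gene's promoter and run away from the gene, were higher in 301 of 441 tested members (68.3%, 578 in the tables) and lower in 0. The share was 35.5% for all tested lncRNAs. Tested members include transcripts nearly absent outside auxin-treated DIS3-AID cells, so the 68.3% and the 0 lower are partly set by the filter. BBS7-DT, for example, averaged 0.0685 CPM over the 12 libraries and had an interaction of 5.46. Their median interaction was 1.36, made of a median auxin effect of 1.41 in DIS3-AID cells and of 0.04 in control cells. The promoters of SND1-DT and STAM-DT, both among the 3 largest at a mean of at least 1 CPM, are shown as examples of where such transcripts start. Each runs from 250 bases before to 50 bases after the start (RefSeq, GRCh38.p14, on the transcript's strand), and capitals mark GC boxes (GGGCGG or CCGCCC).
SND1-DT: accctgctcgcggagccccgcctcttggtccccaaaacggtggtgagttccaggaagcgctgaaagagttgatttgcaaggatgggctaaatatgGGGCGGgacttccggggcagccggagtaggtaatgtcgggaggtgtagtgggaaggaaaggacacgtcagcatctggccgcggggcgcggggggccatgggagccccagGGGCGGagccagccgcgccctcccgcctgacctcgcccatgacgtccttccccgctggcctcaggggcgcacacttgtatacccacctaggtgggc
STAM-DT: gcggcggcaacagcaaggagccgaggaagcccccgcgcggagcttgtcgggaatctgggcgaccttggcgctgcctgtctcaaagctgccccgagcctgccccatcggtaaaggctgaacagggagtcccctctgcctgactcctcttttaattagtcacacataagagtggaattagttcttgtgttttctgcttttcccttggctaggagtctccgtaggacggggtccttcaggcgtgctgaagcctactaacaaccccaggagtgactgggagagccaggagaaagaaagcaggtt

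The SND1-DT window (chr7:127651783-127652082, minus strand) holds 2 GC boxes and 22 CpG, and the STAM-DT window (chr10:17643869-17644168, minus strand) holds 0 and 14. Among divergent transcripts with a promoter entry, 73.3% of 225 called higher and 79.2% of 106 not called had a GC box. The share was 68.8% of 11311 tested protein-coding genes and 45% of all 35116 promoters in the table. TATAAA, searched on both strands, was found in 3.56% of the divergent transcripts called higher, 3.77% of those not called, 6.02% of tested protein-coding genes and 11.5% of all promoters.

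SND1-DT (chr7:127644685-127652012, minus strand) stood at 8.08, 10.2 and 8.6 CPM in auxin-treated DIS3-AID cells, 1.06, 0.605 and 0.795 CPM in DIS3-AID cells without auxin, 0.726, 0.698 and 0.645 CPM in auxin-treated control cells and 0.747, 0.827 and 0.631 CPM in untreated control cells. Auxin-treated DIS3-AID libraries stood apart and the other groups overlapped, with an interaction of 3.53 ± 0.24, adjusted p = 2.32e-09. ITPRID2-DT had 3.57 ± 0.26 and STAM-DT 3.50 ± 0.21. The protein-coding genes on the other side of these promoters were not called at that rate. Of 431 such partners of 432 divergent transcripts, 12 were higher (2.78%) and 24 lower (5.57%), with a median of -0.10, close to the -0.09 of all protein-coding genes.

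Antisense lncRNAs, named for the gene they run against, were higher in 422 of 840 tested members (50.2%, 1842 in the tables) and lower in 2, with a median of 0.79. Of all tested lncRNAs 35.5% were higher. The antisense lower count was 1 on library sizes alone and without replicate 2 or 3 of auxin-treated DIS3-AID cells, replicate 2 of untreated DIS3-AID cells, replicate 2 or 3 of auxin-treated control cells, or replicate 1 or 3 of untreated control cells. SKAP1-AS1 (chr17:48185938-48204529, plus strand) had the largest interaction of all features with a gene symbol and a mean of at least 1 CPM. It stood at 21, 19.8 and 17.8 CPM in auxin-treated DIS3-AID cells, 0.977, 0.968 and 0.822 CPM in DIS3-AID cells without auxin, 0.577, 0.578 and 0.443 CPM in auxin-treated control cells and 0.554, 0.568 and 0.606 CPM in untreated control cells. No library outside auxin-treated DIS3-AID cells reached 1 CPM, and the interaction was 4.49 ± 0.19, adjusted p = 8.91e-12. ZBTB20-AS5 had 4.30 ± 0.28 and MYL12-AS1 3.66 ± 0.18.

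The genes opposite these antisense transcripts were called far less often than the transcripts themselves. SKAP1, which encodes a T cell adaptor protein, had 0.98 (adjusted p = 1.37e-07), ZBTB20, which encodes a zinc finger repressor, had 0.01 (adjusted p = 0.964), and SLC38A2, which encodes an amino acid transporter, had -0.58 (adjusted p = 0.00341) beside 4.11 for SLC38A2-AS1. Of 726 protein-coding partners, 48 were higher (6.61%) and 41 lower (5.65%), both somewhat above the 4.55% and 4.91% of all tested protein-coding genes. Whether these shares differ was not tested. The library kit kept strand, but the strand setting of the counting is not given in the sources used here, so reads of a gene and its antisense partner may be mixed.

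Intergenic lncRNAs (LINC genes) were higher in 154 of 459 tested members (33.6%, 2246 in the tables) and lower in 3, with a median of 0.49. That is near the 35.5% and the median of 0.50 of all tested lncRNAs. Lower calls were 1 without any of 7 libraries: replicate 3 of auxin-treated DIS3-AID cells, replicates 1 and 2 of untreated DIS3-AID cells, replicates 1 and 3 of auxin-treated control cells, and replicates 2 and 3 of untreated control cells. LINC02939 had 3.36 ± 0.20, adjusted p = 5.28e-10, averaging 9.89 CPM in auxin-treated DIS3-AID cells and under 1 CPM in each other group. Host transcripts of microRNAs were higher in 18 of 39 tested members (46.2%) and lower in 0. The most abundant of those named, MIR378D2HG, stood at 63.7, 60.9 and 61.8 CPM in auxin-treated DIS3-AID cells, 4.17, 4.49 and 4.45 CPM in DIS3-AID cells without auxin, 3.24, 3.07 and 3.28 CPM in auxin-treated control cells and 3.31, 2.81 and 2.57 CPM in untreated control cells, which gave 3.70 ± 0.11, adjusted p = 1.59e-13. Host lncRNAs of snoRNAs were higher in 15 of 29 tested members (51.7%) and lower in 0, with SNHG20 at 1.46 ± 0.10 and SNHG26 at 1.21 ± 0.08.

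Among 15 tested lncRNAs known for staying in the nucleus, 7 features were higher (46.7%, beside 35.5% of all tested lncRNAs) and 0 lower. NEAT1, the scaffold of paraspeckles, stood at 53.9, 49.2 and 56 CPM in auxin-treated DIS3-AID cells, 33.7, 32.5 and 31 CPM in DIS3-AID cells without auxin, 41.6, 39.1 and 42 CPM in auxin-treated control cells and 35.7, 38.1 and 33.8 CPM in untreated control cells. Its libraries were higher with auxin than without in both lines, by more in DIS3-AID cells, but its auxin effect in control cells was not called. The interaction was 0.52 ± 0.09, adjusted p = 0.000121. LINC-PINT is counted as 2 features, at 1.61 ± 0.10 for the feature with the larger interaction and 1.33 ± 0.11 for the other, and MIAT had 1.88 ± 0.22. MALAT1, a lncRNA of nuclear speckles, had -0.11 ± 0.08, adjusted p = 0.39.

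**Figure D2:**
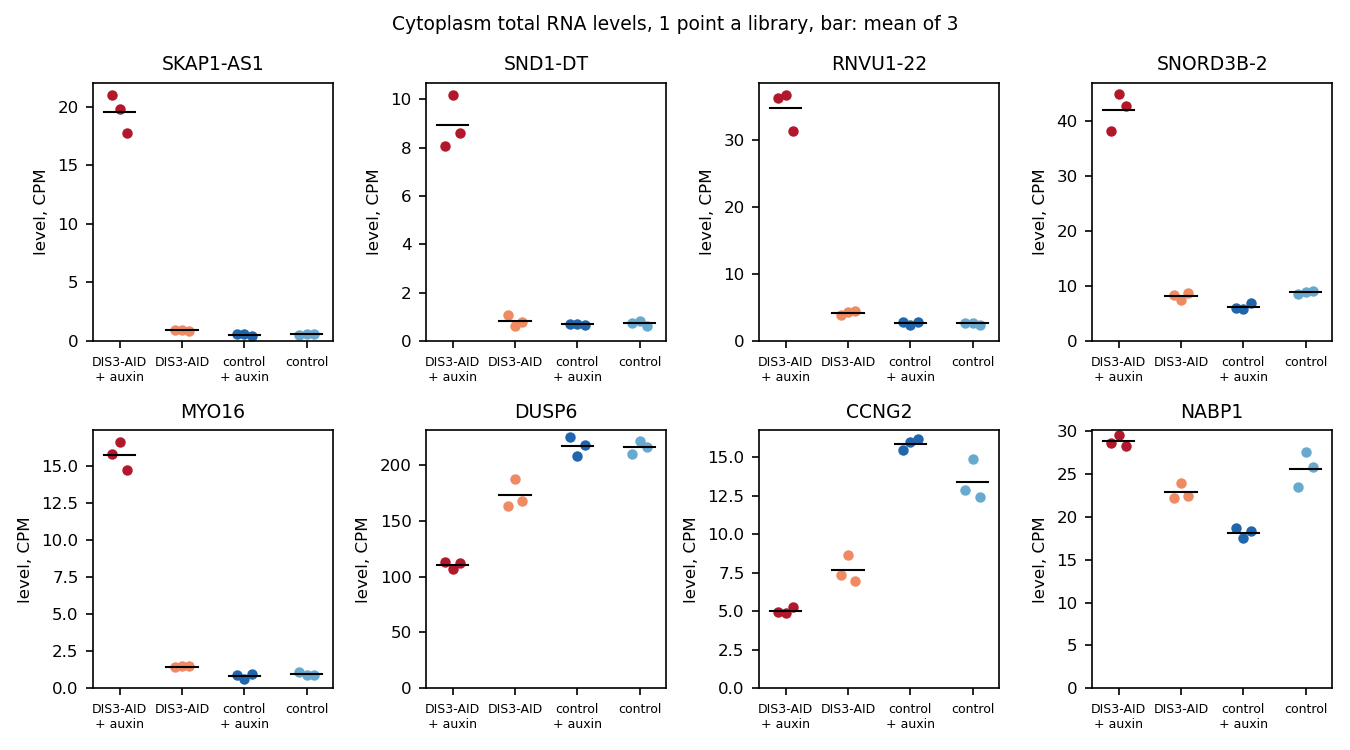
Levels of 8 named genes in CPM, on axes that start at 0, with 1 point a library and a bar at the mean of 3, in the order auxin-treated DIS3-AID, untreated DIS3-AID, auxin-treated control and untreated control cells. SKAP1-AS1, SND1-DT, RNVU1-22, SNORD3B-2 and MYO16 are high in auxin-treated DIS3-AID cells alone, while DUSP6 and CCNG2 are lowest there.

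The 655 protein-coding genes called higher were mostly genes of low level in untreated control cells. The filter on low counts lets a gene be tested through auxin-treated DIS3-AID libraries alone, so this low level is partly set by the filter. Their median in untreated control cytoplasm was 0.434 RPKM, which is CPM divided by exon length in kilobases, against 4.74 for all tested protein-coding genes and 6.46 for the 707 called lower. Their median auxin effect was 0.86 in DIS3-AID cells and -0.03 in control cells, and in chromatin RNA their median interaction was 0.01. MYO16, which encodes an unconventional myosin, had the largest value at a mean of at least 1 CPM. It stood at 15.8, 16.6 and 14.7 CPM in auxin-treated DIS3-AID cells, 1.42, 1.49 and 1.5 CPM in DIS3-AID cells without auxin, 0.874, 0.6 and 0.936 CPM in auxin-treated control cells and 1.12, 0.907 and 0.928 CPM in untreated control cells, with an interaction of 3.73 ± 0.19, adjusted p = 5.1e-11.

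The other 7 genes named for size included KRT86, a hair keratin (3.53 ± 0.16), DLGAP1, a scaffold of the postsynaptic density (2.91 ± 0.15), and SPAG6, a protein of the sperm flagellum (3.0 ± 0.29). DLGAP1 averaged 81.6 CPM in auxin-treated DIS3-AID cells, 9.18 CPM in untreated DIS3-AID cells, 7.21 CPM in auxin-treated control cells and 6.13 CPM in untreated control cells, so low levels were present in every group. Gene counts do not show which part of a gene the reads came from. Of 10 tested targets of the aryl hydrocarbon receptor 1 was higher and 1 lower: CYP1A1, a cytochrome P450, had 1.14 ± 0.19, adjusted p = 0.000118, LRAT had -0.32 ± 0.11, adjusted p = 0.0498, and TIPARP, another target, had -0.07 ± 0.09, adjusted p = 0.632. The LRAT call was lost on library sizes alone (adjusted p = 0.19), with no filter on low counts (adjusted p = 0.141), under the stricter filter (adjusted p = 0.0636) and when any 1 of 9 libraries was left out (adjusted p from 0.0811 to 0.189): each library but replicate 1 of auxin-treated DIS3-AID cells, replicate 3 of auxin-treated control cells and replicate 2 of untreated control cells. Zinc finger genes were higher in 26 of 402 tested members (6.47%) and lower in 7 (1.74%), beside 4.55% and 4.91% of all tested protein-coding genes, with ZNF572 at 1.80 ± 0.15. The lower count was 15 without replicate 1 of auxin-treated DIS3-AID cells, 12 without replicate 3 of untreated DIS3-AID cells, and 4 without replicate 1 of auxin-treated control cells or replicate 3 of untreated control cells.

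Protein-coding genes called lower changed by less. They were 4.91% of tested protein-coding genes, and 3.31% of all features were lower, the shares to set beside the list counts below. Of 51 immediate-early genes, which respond within minutes to growth factors, 12 were lower (23.5%) and 0 higher. Their median was -0.29 against -0.09 for all protein-coding genes. DUSP6, a phosphatase that switches off ERK, stood at 113, 107 and 112 CPM in auxin-treated DIS3-AID cells, 163, 187 and 168 CPM in DIS3-AID cells without auxin, 225, 208 and 218 CPM in auxin-treated control cells and 210, 221 and 216 CPM in untreated control cells. Its libraries were lowest in auxin-treated DIS3-AID cells, the control groups overlapped, and the interaction was -0.64 ± 0.08, adjusted p = 2.37e-06. KLF6, a zinc finger transcription factor, stood at 143, 127 and 127 CPM in auxin-treated DIS3-AID cells, 167, 158 and 158 CPM in DIS3-AID cells without auxin, 237, 239 and 234 CPM in auxin-treated control cells and 196, 206 and 187 CPM in untreated control cells. It was lower with auxin in every DIS3-AID library and higher with auxin in every control library (interaction -0.55 ± 0.07, adjusted p = 1.47e-05). TRIB1, a pseudokinase, had -0.43 ± 0.06, and BHLHE40, a clock repressor, had -0.73 ± 0.17. On library sizes alone 8 of the 51 were lower, against 18 with DESeq2 and 26 with no filter on low counts. It was also 8 without replicate 2 of auxin-treated DIS3-AID cells or replicate 1 of untreated control cells.

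Genes of endoplasmic reticulum (ER) protein folding were lower in 11 of 20 cases and higher in 0, with a median of -0.37. CANX, a lectin chaperone of the ER, stood at 102, 117 and 103 CPM in auxin-treated DIS3-AID cells, 144, 169 and 144 CPM in DIS3-AID cells without auxin, 192, 157 and 178 CPM in auxin-treated control cells and 195, 169 and 167 CPM in untreated control cells. All auxin-treated DIS3-AID libraries were below the other 9 (interaction -0.49 ± 0.12, adjusted p = 0.00689). HYOU1, an ER chaperone, had -0.45 ± 0.09, SEL1L, part of the ER degradation machinery, -0.51 ± 0.12, and PDIA3, a disulfide isomerase, -0.49 ± 0.12. HSPA5, the main ER chaperone, had -0.48 ± 0.14, adjusted p = 0.0288, but adjusted p = 0.0524 on library sizes alone and 0.0851 with a replicate block. It was not called (adjusted p from 0.0516 to 0.125) without replicate 1 or 3 of auxin-treated DIS3-AID cells, 2 or 3 of untreated DIS3-AID cells, 1 or 3 of auxin-treated control cells, or 2 or 3 of untreated control cells. The count of 11 was 8 on library sizes alone. It was 6 without replicate 3 of auxin-treated DIS3-AID cells or replicate 3 of untreated control cells, and 7 without replicate 3 of auxin-treated control cells.

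Among 36 genes of sterol and fatty acid synthesis, a list drawn up after values had been seen, 16 were lower and 0 higher, with a median of -0.26. INSIG1, which keeps the sterol-responsive SREBP factors in the ER, stood at 33, 27.6 and 32.8 CPM in auxin-treated DIS3-AID cells, 46, 46.9 and 41.3 CPM in DIS3-AID cells without auxin, 57.8, 53.3 and 53.3 CPM in auxin-treated control cells and 54.1, 55.1 and 54.3 CPM in untreated control cells. The auxin-treated DIS3-AID libraries lay lowest and the interaction was -0.53 ± 0.09, adjusted p = 0.000315. MSMO1 and SQLE, enzymes of cholesterol synthesis, had -0.49 ± 0.08 and -0.42 ± 0.08. On library sizes alone 7 were lower. Without replicate 2 of auxin-treated DIS3-AID cells, replicate 1 of untreated DIS3-AID cells or replicate 3 of untreated control cells, 10 were lower.

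FOXO and glucose-response genes were lower in 7 of 19 tested members (36.8%) and higher in 0 (6 lower on library sizes alone). CCNG2, a cyclin linked to cell cycle arrest, stood at 4.98, 4.87 and 5.29 CPM in auxin-treated DIS3-AID cells, 7.39, 8.67 and 6.98 CPM in DIS3-AID cells without auxin, 15.5, 16 and 16.2 CPM in auxin-treated control cells and 12.9, 14.9 and 12.4 CPM in untreated control cells. DIS3-AID libraries lay below control libraries throughout, auxin-treated ones lowest, with an interaction of -0.85 ± 0.12, adjusted p = 2.01e-05. Targets of ATF4, the transcription factor of the integrated stress response, were lower in 7 of 22 tested members (31.8%). PPP1R15A had -0.60 ± 0.09 and SLC7A11 -0.53 ± 0.12. The ATF4 count was 3 on library sizes alone. It was also 3 without replicate 2 of auxin-treated DIS3-AID cells, replicate 1 of untreated DIS3-AID cells or replicate 1 of untreated control cells, and 4 without any 1 of the auxin-treated control libraries or replicate 3 of untreated control cells.

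Targets of p53 were lower in 6 of 32 tested members (18.8%), with SESN2 at -0.47 ± 0.08 and GADD45A at -0.46 ± 0.09. SESN2 is also in the ATF4 list and GADD45A in the YAP list, so the list counts share genes. The p53 count was 3 on library sizes alone and 3 without replicate 2 of auxin-treated DIS3-AID cells. Secreted matrix and adhesion genes were lower in 10 of 35 (28.6%), and in 5 on library sizes alone. Without replicate 1 of untreated DIS3-AID cells or replicate 3 of untreated control cells 6 were lower, and without replicate 3 of auxin-treated control cells 4. SPARC, a matrix glycoprotein, stood at 7.6, 8.14 and 8.22 CPM in auxin-treated DIS3-AID cells, 10.5, 12.1 and 10.6 CPM in DIS3-AID cells without auxin, 2.08, 1.27 and 1.27 CPM in auxin-treated control cells and 1.26, 1.13 and 1.2 CPM in untreated control cells. Its DIS3-AID libraries were all above its control libraries, and the interaction was -0.86 ± 0.20, adjusted p = 0.00329.

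Ribosomal protein genes and their copies were lower in 11 of 90 tested members (12.2%) and higher in 1, with a median of -0.17. Of these, RPS27, of the small subunit, had -0.43 ± 0.11. The lower count was 2 on library sizes alone and ran from 2 without replicate 2 of untreated control cells to 24 without replicate 3 of untreated DIS3-AID cells. It was 3 without replicate 2 of untreated DIS3-AID cells, 4 without replicate 3 of untreated control cells, 5 without replicate 3 of either auxin-treated group and 7 without replicate 1 of auxin-treated control cells. Replication-dependent histone genes were lower in 9 of 52 (17.3%) and higher in 1, H2BC6 (1.61 ± 0.15), with H2AC21 at -0.31 ± 0.07. Their lower count was 1 on library sizes alone. It was 5 without replicate 3 of auxin-treated DIS3-AID cells, 4 without replicate 2 of untreated DIS3-AID cells, replicate 3 of auxin-treated control cells or replicate 3 of untreated control cells, and 3 without replicate 2 of untreated control cells.

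**Figure D3:**
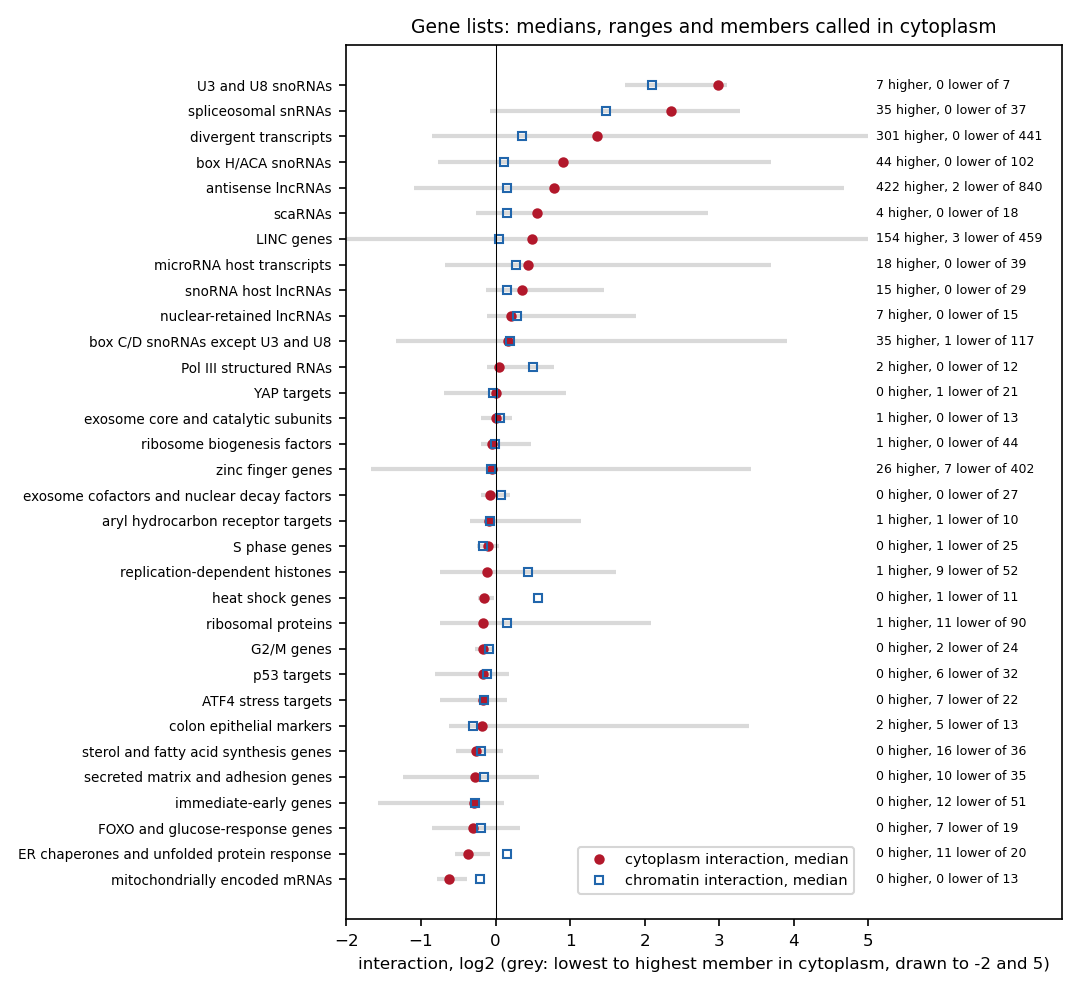
Median interaction of each gene list on the log2 scale in cytoplasm (filled circles) and chromatin (open squares), with a grey line from the lowest to the highest member in cytoplasm and the counts called at the right. U3 and U8 snoRNAs (2.99), spliceosomal snRNAs (2.36) and divergent transcripts (1.36) have the highest cytoplasmic medians.

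**Figure D4:**
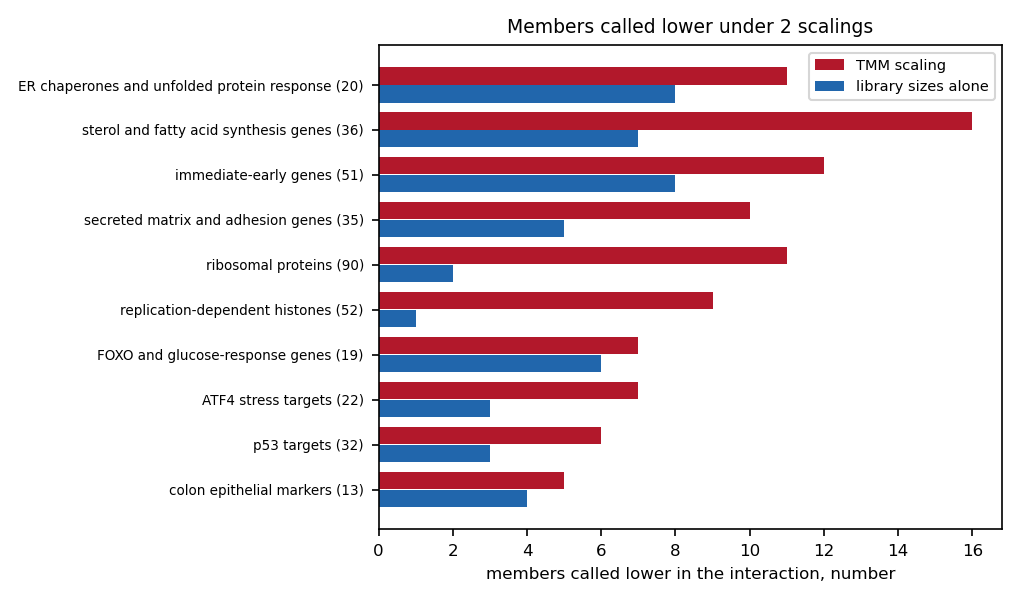
Members called lower in the interaction, as a number, for lists of mostly protein-coding genes with the number tested in brackets, under TMM scaling and on library sizes alone. Every list shown with TMM calls has fewer on library sizes alone, for example 8 against 11 for ER genes and 2 against 11 for ribosomal proteins.

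The subunits of the exosome were mostly not called. Of 13 core and catalytic genes 1 was higher, EXOSC6 (0.22 ± 0.07, adjusted p = 0.0303), and 0 were lower. That call was lost without replicate 1 of auxin-treated DIS3-AID cells (adjusted p = 0.071), replicate 2 of untreated control cells (adjusted p = 0.0791) or replicate 3 of untreated control cells (adjusted p = 0.058). EXOSC10, the other nuclear exosome nuclease, had -0.07 ± 0.07, adjusted p = 0.549, and DIS3L, a cytoplasmic relative of DIS3, 0.0 ± 0.07, adjusted p = 1. Of 27 cofactors and decay factors 0 were called, but 1 was higher on library sizes alone and without replicate 2 of untreated DIS3-AID cells or replicate 1 of auxin-treated control cells, and 1 lower with DESeq2. Ribosome biogenesis factors had 1 higher of 44, NOP58 (0.47 ± 0.08), which overlaps SNORD70B, and 0 lower (1 without replicate 3 of untreated DIS3-AID cells). Structured RNAs made by RNA polymerase III were higher in 2 of 12 (16.7%), near the 16.1% of all features. These were BCYRN1 (0.73 ± 0.14) and VTRNA1-3 (0.71 ± 0.19), while RN7SK had -0.11 ± 0.08. Without replicate 3 of untreated DIS3-AID cells 4 of the 12 were higher.

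Heat shock genes were lower in 1 of 11 cases (9.09%), S phase genes in 1 of 25 (4%) and G2/M genes in 2 of 24 (8.33%). Targets of YAP, the growth regulator of the Hippo pathway, were lower in 1 of 21 (4.76%), and 0 were higher in each list. Of all tested protein-coding genes 4.91% were lower. The YAP target called lower was GADD45A, which is also in the p53 list. These small counts changed with the libraries used. G2/M genes lower were 7 without replicate 3 of untreated DIS3-AID cells, 3 without replicate 1 of auxin-treated DIS3-AID cells or replicate 1 of untreated control cells, 2 without replicate 3 of auxin-treated control cells, 0 without replicate 3 of untreated control cells and 1 without any other library. They were 5 with DESeq2 and 0 on library sizes alone. The S phase count was 0 on library sizes alone and without replicate 2 or 3 of auxin-treated DIS3-AID cells, replicate 2 of untreated DIS3-AID cells, replicate 1 of auxin-treated control cells, or replicate 2 or 3 of untreated control cells, and 3 with DESeq2. The heat shock count was 0 on library sizes alone and without replicate 1 of untreated DIS3-AID cells, replicate 3 of auxin-treated control cells, or replicate 1 or 2 of untreated control cells, and 2 with no filter. YAP targets had 4 higher and 1 lower without replicate 3 of auxin-treated control cells, 0 higher and 2 lower without replicate 2 of auxin-treated control cells, 1 each way on library sizes alone, and 1 higher and 4 lower with no filter.

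Mitochondrially encoded mRNAs had a median of -0.62, the lowest of the lists, but 0 of 13 were called, with standard errors of 0.50 to 0.65. With no filter on low counts all 13 were called lower, at a median of -0.60. The median was -0.18 without replicate 3 of auxin-treated control cells, -0.29 without replicate 3 of untreated DIS3-AID cells, and between -0.44 and -0.88 without any other library. Their summed level was 14100 to 24800 CPM in auxin-treated DIS3-AID cells, 16300 to 31100 CPM in untreated DIS3-AID cells, 4580 to 10900 CPM in auxin-treated control cells and 5270 to 7930 CPM in untreated control cells. Libraries of 1 group thus differed widely in mitochondrial RNA, whose part in the other results was not tested.

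Epithelial keratins were abundant, while several colon differentiation markers were nearly missing. Of 20 colon epithelial markers 13 passed the filter, led by KRT8, with summed levels of 3350 to 3590 CPM in auxin-treated DIS3-AID cells, 3420 to 3560 CPM in untreated DIS3-AID cells, 2820 to 2980 CPM in auxin-treated control cells and 2880 to 2990 CPM in untreated control cells. Differentiation markers such as MUC2, CEACAM5 and VIL1 averaged under 0.05 CPM. In the interaction 5 of the 13 were lower and 2 higher, with CDH1 at -0.46 ± 0.08, CLDN3 at -0.62 ± 0.13 and ELF3 at -0.61 ± 0.08. The call of GPA33, 1 of the 2 that were higher, was lost without replicate 2 of untreated control cells (adjusted p = 0.0521), and 1 was higher under the stricter filter. Fibroblast markers summed to 12.2 to 12.8 CPM in auxin-treated DIS3-AID cells, 12.6 to 13.3 CPM in untreated DIS3-AID cells, 13.3 to 18.2 CPM in auxin-treated control cells and 14 to 14.6 CPM in untreated control cells. Blood cell markers summed to 2.79 to 4.15 CPM over all libraries, with NKG7 and PPBP, 2 of 15, at 0 throughout, and 0 markers of either kind were called.

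Few features were called for auxin in control cells. Of the 11 features called for auxin in control cells, 5 were higher and 6 lower. With the replicate number as a block 22 were higher and 40 lower. Leaving out 1 control library gave 34 without replicate 3 of auxin-treated cells and 1 to 4 without any other. The interaction was called for 9 of the 11, beside 19.4% of all features. The auxin effect in control cells is subtracted in the interaction, so features picked by that effect are apt to be called there. The 9 calls are therefore no separate evidence. NABP1, a single-stranded DNA binding protein, stood at 28.6, 29.5 and 28.3 CPM in auxin-treated DIS3-AID cells, 22.2, 24 and 22.4 CPM in DIS3-AID cells without auxin, 18.7, 17.5 and 18.3 CPM in auxin-treated control cells and 23.5, 27.6 and 25.8 CPM in untreated control cells. Auxin-treated control libraries were all below untreated ones (-0.49, adjusted p = 0.00328), auxin-treated DIS3-AID libraries were all above untreated ones (0.33), and the interaction was 0.83 ± 0.09, adjusted p = 6.54e-07.

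ARRDC3, an arrestin family member, rose with auxin in control cells (0.59, adjusted p = 0.0432), with -0.07 in DIS3-AID cells and an interaction of -0.65 ± 0.14, adjusted p = 0.00217. HJV, a coreceptor for bone morphogenetic proteins, fell with auxin in control cells (-0.60), with 0.31 in DIS3-AID cells and an interaction of 0.91 ± 0.14. TIPARP had auxin effects of 0.34 in DIS3-AID cells and 0.41 in control cells, and MIR181A1HG, a microRNA host, 1.03 and 0.81 in the same order. Their interactions were not called, at -0.07 ± 0.09, adjusted p = 0.632 for TIPARP and 0.22 ± 0.19, adjusted p = 0.47 for MIR181A1HG.

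**Figure D5:**
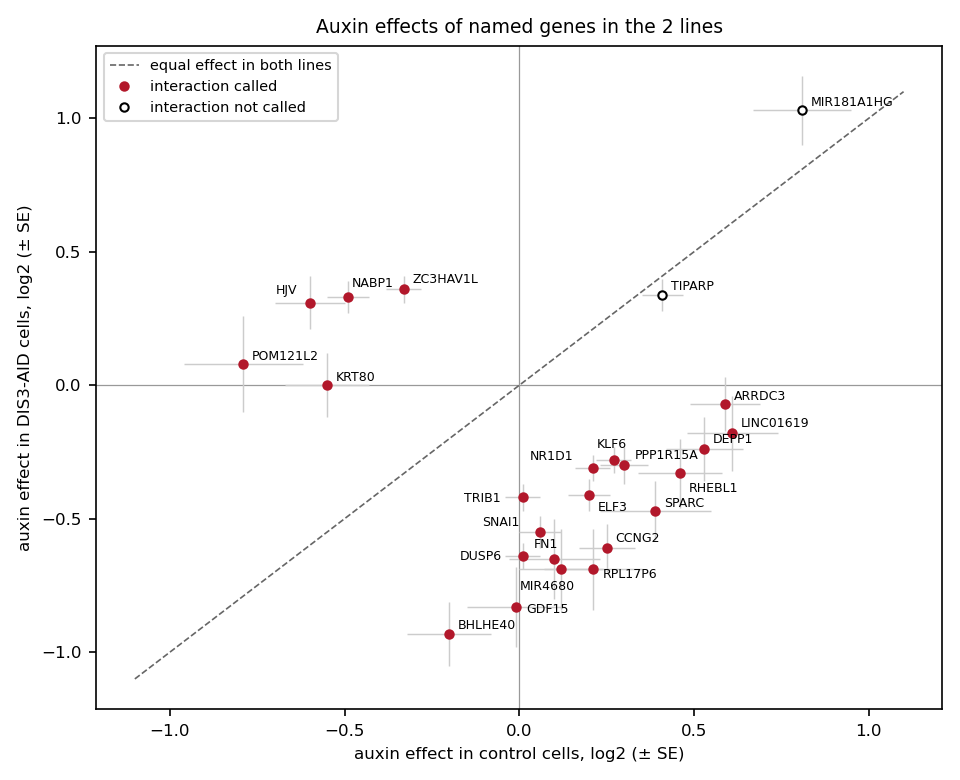
Auxin effect in DIS3-AID cells (vertical axis) against the auxin effect in control cells (horizontal axis), both log2 with SE bars, for 25 named genes with an effect under 1.5 in DIS3-AID cells. The dashed line marks equal effects, and vertical distance from it is the interaction. TIPARP and MIR181A1HG lie near the line, while NABP1 and ARRDC3 lie off it.

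The same interaction was measured in the 12 chromatin total RNA libraries, and the difference between fractions is given as chromatin minus cytoplasm, so a negative value means a larger interaction in cytoplasm. It was fitted over both sets of libraries together, with their own scaling, and need not equal the 2 separate values subtracted. Of 27418 features tested, 3708 (13.5%) were higher and 2263 (8.25%) lower in that difference. On library sizes alone 385 were higher and 4128 lower, and TMM raised the median by 0.33, so higher calls depend on the scaling. Divergent transcripts had medians of 1.36 in cytoplasm and 0.35 in chromatin, and the difference was lower in 158 of 440 (209 on library sizes alone) and higher in 11 (3). For antisense lncRNAs it was lower in 232 of 834 (322) and higher in 33 (5). SKAP1-AS1 had 4.49 in cytoplasm and 0.58 in chromatin (difference -3.72, adjusted p = 6.56e-11). MYO16 had 3.73 in cytoplasm and 0.16 in chromatin (difference -3.38, adjusted p = 3.79e-14).

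Spliceosomal snRNAs had medians of 2.36 in cytoplasm and 1.48 in chromatin, and the difference was lower in 7 of 37 and higher in 1 (11 and 0 on library sizes alone). For U3 and U8 snoRNAs the medians were 2.99 in cytoplasm and 2.10 in chromatin, with a lower difference in 1 of 7. RNVU1-22 had 3.0 in cytoplasm and 3.54 in chromatin (difference 0.73, adjusted p = 0.24). Heat shock genes had medians of -0.16 in cytoplasm and 0.57 in chromatin, and the difference was higher in 11 of 11, 10 on library sizes alone. HSPH1, a chaperone of the HSP110 family, had -0.17 in cytoplasm and 1.35 in chromatin (difference 1.70, adjusted p = 5.44e-05). For ER genes the medians were -0.37 in cytoplasm and 0.16 in chromatin, and 18 of 20 were higher in the difference under TMM but 3 on library sizes alone.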

How the data were processed

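RNA was measured as ribosomal RNA-depleted, stranded total RNA from the cytoplasm of HCT116 cells, with chromatin RNA as a comparison. Fractions were made with buffers of differing salt, per the labels' protocols. The values are read counts per feature as deposited. The submitters' processing notes name featureCounts 2.0.0, STAR 2.7.3a and Cufflinks 2.2.1, with the build hg38. Strand setting, treatment of multi-mapping reads and annotation are not given in the sources used here. Of 59607 features, 57836 were found in GENCODE 29 and 1433 are assembled loci.

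Counts were scaled by TMM, filtered with filterByExpr (minimum count 10) and fitted over the 12 libraries with edgeR 4.0.16 (robust quasi-likelihood F test, Benjamini-Hochberg adjustment, threshold 0.05) in R 4.3.3. The comparison of fractions used 24 libraries. DESeq2 1.42.0, other scalings and filters, a replicate block and leaving out each library were alternatives. On simulated counts for 22786 genes the interaction test recovered 90% of 4-fold, 77.5% of 2-fold and 57.5% of 1.5-fold increases. It recovered 66.7% of decreases to 0.5 and 38.5% of decreases to 0.667, fewer than of increases of equal size, which were set in other genes drawn at random. Each fold was given to 39 or 40 genes, and no other gene had an interaction. In the data 19.4% of features were called, so these rates need not hold there. False calls numbered 13. All 12 libraries differed by more than sampling noise. Intervals and tests do not cover the line being 1 clone.

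Replicate numbers are shared by the groups. In control cells same-numbered libraries deviated together (r = 0.182 to 0.398 in 3 of 3 pairs, over features of at least 5 CPM), so the blocked count stands beside that result. In DIS3-AID cells r ran from -0.205 to 0.426.

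Named genes are those with a symbol, a mean of at least 1 CPM and adjusted p < 0.05 that rank highest or lowest by class, by auxin effect in control cells, by p or within each of 33 lists (3 each way), with DIS3, all control calls and members of short lists. A list of sterol genes was added after values were seen, its members named in the same way. Members and lists were chosen with earlier results of these data known. A 7SK copy typed as snRNA was counted among other small RNAs. Promoter sequences are from RefSeq (GRCh38.p14).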

Additional observations from a re-analysis of the deposited data

Results flagged for a closer look

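Among the 277 features that the naming rule and the short lists gave, 36 had every auxin-treated DIS3-AID library on one side of the untreated DIS3-AID libraries and every auxin-treated control library on the other side of the untreated control libraries, with the interaction, which tests the difference itself, called at adjusted p < 0.05 (edgeR quasi-likelihood test). Over all features 19.4% were called in the interaction, but the share that meets the whole rule was not computed. Many of the 277 were named because their interaction or control effect was called. The 36 of 277 are therefore not a rate to set beside that share. The auxin effect in control cells by itself was called for 6 of the 36: SNORD3B-2, HJV, NABP1, ZC3HAV1L and a pair of features without a symbol, ENSG00000260167 and ENSG00000262202. For the other 30 the direction in control cells is that of the libraries only.

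Of the 36, 22 were higher in the interaction, most of them small RNAs whose copies may share reads. Spliceosomal snRNAs had log2 interactions of 3.23 (RNU1-4), 3.17 (RNVU1-21), 2.99 (RNVU1-1), 2.97 (RNU5F-1), 2.45 (RNU11), 2.30 (RNVU1-7), 1.65 (RNU6-2) and 1.63 (RNU6-1). U3 snoRNA genes had interactions of 3.10 in both features named SNORD3D, 3.02 in SNORD3C, 2.99 in SNORD3B-1 and 2.86 in SNORD3B-2, and SNORD13 had 2.79. The divergent transcript STAM-DT had 3.50, the intergenic LINC01460 3.32, ENSG00000262202 3.03 and ENSG00000260167 0.95. The protein-coding genes among them were ZNF112 at 1.04, HJV at 0.91, NABP1 at 0.83 and ZC3HAV1L at 0.69.

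The other 14 were lower. RPL17P6, a ribosomal protein pseudogene, had an interaction of -0.90, SPARC -0.86, CCNG2 -0.85, RHEBL1 -0.79 and CLDN3, a tight junction protein gene, -0.62. ELF3, an epithelial transcription factor, had -0.61, PPP1R15A -0.60, KLF6 -0.55, and ZNF669 and NR1D1, a clock repressor, -0.51 each. KLHL24 had -0.50, SESN2 -0.47, GADD45A -0.46 and KIF20A, a mitotic kinesin, -0.24. In the edgeR test the KIF20A call was lost on library sizes alone (adjusted p = 0.128) and with no filter on low counts (adjusted p = 0.0794). It was also lost without replicate 3 of untreated control cells (adjusted p = 0.0671).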

How the results depend on the processing

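None of the 172 named calls changed sign under any alternative run, but medians did. The median over all features was 0.042 on library sizes alone against -0.044 under TMM for the interaction, and -0.188 against 0.146 for chromatin minus cytoplasm, where 8.53% against 62.1% of calls were higher. Medians of some lists in that last comparison also changed sign, such as -0.07 against 0.26 for exosome core subunits and -0.10 against 0.24 for nuclear-retained lncRNAs. Higher calls in the interaction stayed within 1.5 times of 3696 under each alternative, and leaving out 1 library gave 3420 to 3752. Lower calls (763) were 237 on library sizes alone, 1263 with DESeq2 and 1300 with the replicate block. Leaving out 1 library gave 344 (without replicate 3 of untreated control cells) to 871. On library sizes alone all 3696 higher and 237 of the 763 lower calls remained. Lower calls for auxin in DIS3-AID cells (3040) were 681 on library sizes alone, 1954 under the stricter filter and 1477 (without replicate 2 of auxin-treated DIS3-AID cells) to 2446 without 1 library. Calls for auxin in control cells (11, 5 higher and 6 lower) were 4 with RLE scaling (2 and 2), 245 with no filter (93 and 152), 6 under the stricter filter (2 higher), 67 with DESeq2 (28 and 39) and 62 with the replicate block (22 and 40). Leaving out 1 library gave 1 to 34 (1 to 7 higher, 0 to 27 lower). For chromatin minus cytoplasm, library sizes alone gave 385 higher and 4128 lower, and leaving out 1 library gave 2991 to 4198 higher and 2052 to 2287 lower. The cause of these shifts was not tested.

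With the replicate block the interaction had 5110 calls (3810 higher), auxin in DIS3-AID cells 9233 (4976 higher) and chromatin minus cytoplasm 6275 (3991 higher). With it 9 G2/M genes and 10 p53 targets were lower in the interaction, against 2 and 6. In the interaction 11 of 18 same-numbered pairs correlated above 0.1, so outside control cells the numbers are not taken as pairs. Of 172 named calls, 22 were lost on library sizes alone, 1 with RLE scaling, 6 with no filter, 7 of 168 under the stricter filter, 1 with DESeq2, 1 with the block and 37 when some library was left out. At this depth simulated 1.5-fold increases were called in 57.5% of cases and decreases to 0.667 in 38.5%, so smaller effects can be missed.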
